A study of Homo sapiens with 8 samples.

Results

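The mitotic genes are 43 genes that act when a cell divides: kinases and cyclins that start mitosis, spindle checkpoint, kinetochore and centromere proteins, kinesin motors, and proteins of spindle assembly, anaphase and cytokinesis. They were taken by gene symbol from a list drawn up with earlier results of these data known. All 43 were found among the 16153 genes of the expression table. All 43 also passed the filter on low values, which asks for 1 CPM or more in 2 or more libraries, and 16103 of the 16153 genes did. CPM here is the deposited unit, a read count scaled for library size.

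RNA came from HMEC-1, an established human microvascular endothelial cell line that carries a viral large T antigen, a protein known to bind p53 and RB. The space_microg group holds 3 libraries of cells grown in weightlessness aboard the International Space Station, and the space_1g group holds 2 libraries of cells flown with them but spun in the incubator's centrifuge at 1 g. The ground group holds 3 libraries of cells prepared alongside and kept in a matching facility in the home laboratory. The labels name no genetic change, and every group grew on gelatin-coated plastic coverslips in the same medium with serum, EGF and hydrocortisone, inside automated culture units. Both flight groups share launch, orbit, radiation and return, so these cannot be told apart from each other in a comparison with ground. The labels do not say whether libraries of a group came from separate cultures, and a p-value therefore sets a difference against the spread between libraries, which may be technical.

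Mitotic genes are transcribed in a wave late in the cell cycle. In resting cells the DREAM complex holds them down through promoter elements, and in dividing cells B-MYB and FOXM1 act with the same MuvB core to switch them on. NF-Y, which binds CCAAT boxes, also drives many of them, and p53 is known to lower many of them through p21, the product of CDKN1A. In a population of growing cells their summed RNA is commonly read as a measure of how many cells are in G2 and mitosis. In bulk samples, fewer cells in those phases and less of this RNA per cell cannot be told apart.

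Libraries held 24248964 to 35388757 reads in the listed genes, and the lowest count of any mitotic gene was 289 reads, for CENPA. Endothelial markers were present, with 15 of 15 in the table and a summed level of 1510 to 2333 CPM in space_microg, 1711 to 1916 CPM in space_1g and 2286 to 2679 CPM in ground. Of 10 leukocyte markers 1 was in the table, CD14, at 1.04 to 2.88 CPM. Of 12 fibroblast and smooth muscle markers 7 were in the table, at a summed 191 to 338 CPM in space_microg, 169 to 354 CPM in space_1g and 243 to 299 CPM in ground. Over all genes, 2 libraries stood apart from the other 6: the first principal component (61.9% of variance) gave scores of 60.7 to space_1g replicate 1 and of 64.7 to ground replicate 3, while the others scored -31.1 to 1.51. Below, the log2 differences of named genes and the medians over the 43 genes and over other lists are therefore also given without these 2 libraries, which leaves space_1g with 1 library that is assumed to vary like the other groups.

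The mitotic genes were low together in those same 2 libraries. The 43 genes summed to 8643, 9925 and 9671 CPM in space_microg, 4412 and 9967 CPM in space_1g, and 10004, 9737 and 5218 CPM in ground. Both low sums, 4412 and 5218 CPM, lay well under the range of 8643 to 10004 CPM of the other 6 libraries. For 41 of the 43 genes, space_1g replicate 1 and ground replicate 3 were the 2 lowest libraries, against 21.5% of all genes tested. PTTG1 and ESPL1, both of the anaphase machinery, were the 2 exceptions. Because the genes were chosen with earlier results of these data known, this count is a description and no test. Of the 2 low libraries 1 is in space_1g and the other in ground, so the drop lies within groups. Both of these groups were at 1 g, and no space_microg library was that low. Whether gravity had a part in the drop was not tested.

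**Figure D1:**
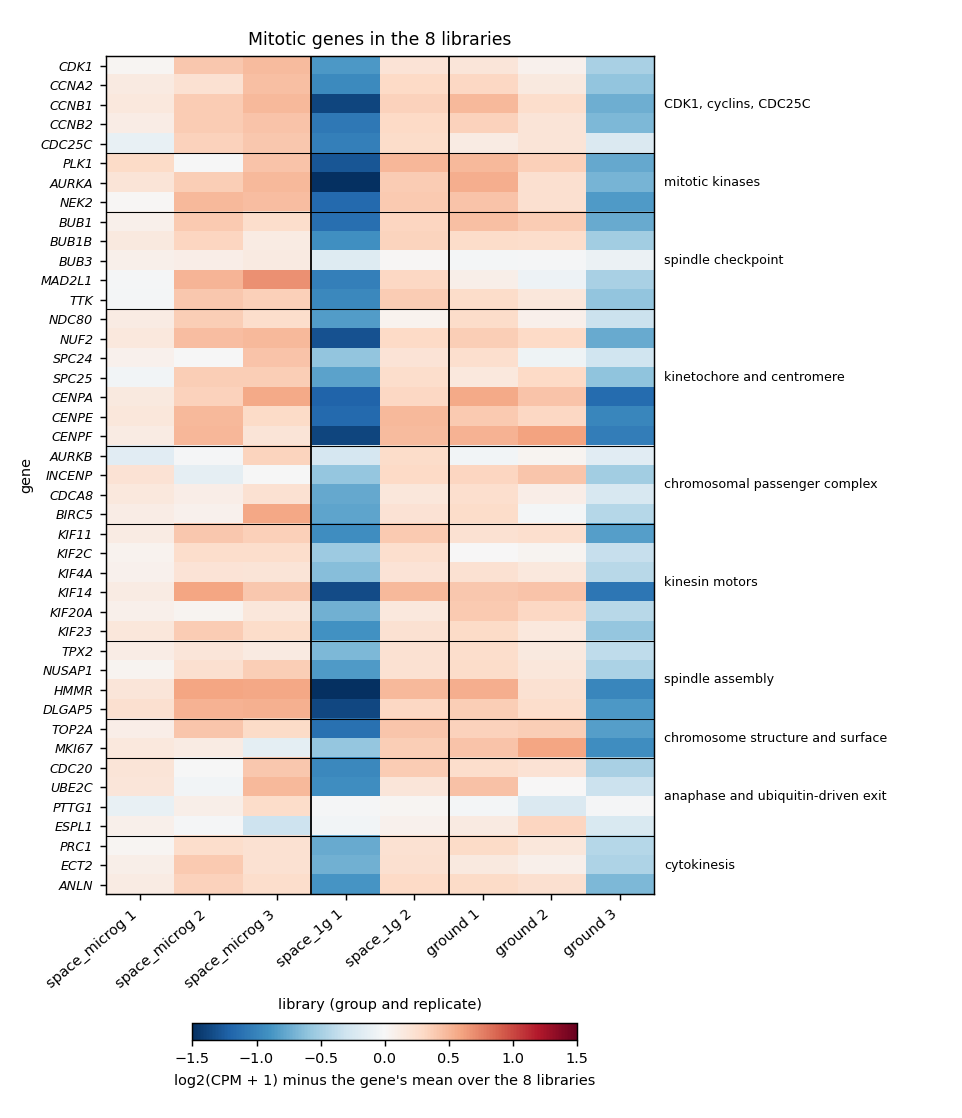
Level of each of the 43 mitotic genes (rows, by role) in each library (columns, by group and replicate), as log2(CPM + 1) minus the gene's mean over the 8 libraries; red is above that mean and blue below. The columns of space_1g replicate 1 and ground replicate 3 are blue for nearly every gene, while PTTG1, ESPL1 and BUB3 stay pale.

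Within space_1g, replicate 1 held a median of 43.8% of the level of replicate 2 over the 43 genes. The share ran between 22.2% for HMMR, a microtubule-binding spindle protein, and 96.4% for PTTG1, the securin that holds separase back. It was under 50% for 28 of the 43 genes, against 8.23% of all genes tested. Within ground, replicate 3 held a median of 57.1% of the mean of replicates 1 and 2. The lowest of these shares was 29.6%, for the centromeric histone CENPA, and the highest 107%, again for PTTG1. It was under 50% for 15 of the 43 genes, against 14.01% of all genes tested.

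Genes low in 1 of these libraries tended to be low in the other. Across the 43 genes the within-group log2 differences of space_1g and ground had a Pearson r of 0.81, and across all 16103 genes tested it was 0.72. Genes are not independent replicates, and the 2 libraries differ from their groups over the whole transcriptome, so this describes the libraries and is given with no test. In space_microg no library stood apart to that degree. Its replicate 1 held a median of 85.0% of the mean of replicates 2 and 3, and lay below that mean for 39 of the 43 genes, against 8035 of the 16103 genes tested. Over the 6 libraries other than space_1g replicate 1 and ground replicate 3, the highest level of a gene was a median of 1.28 times its lowest, with a range of 1.11 to 1.70 between genes. Over all 8 libraries that median was 2.60.

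**Figure D2:**
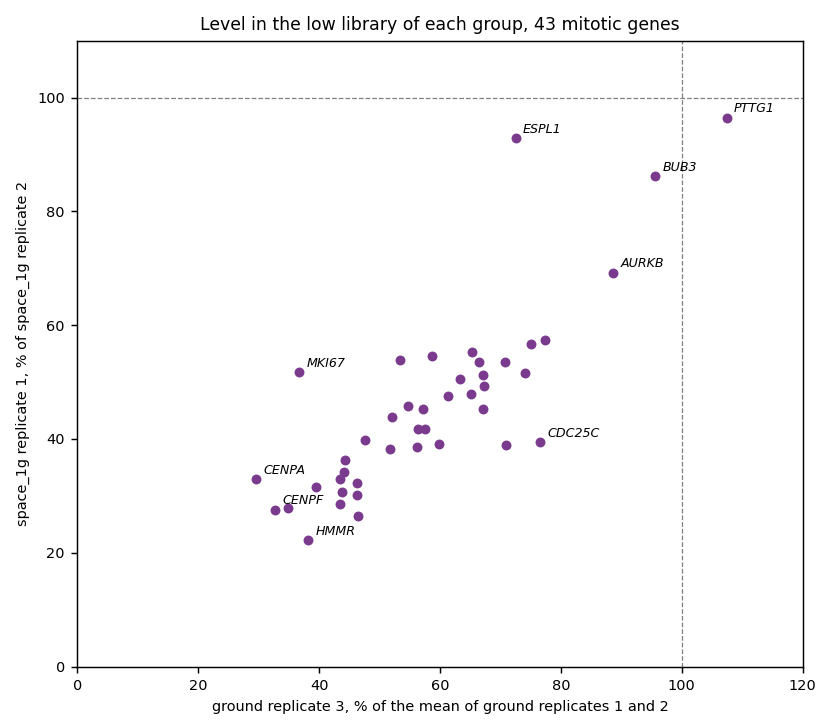
Each point is a mitotic gene, with its level in ground replicate 3 as a percentage of the mean of ground replicates 1 and 2 (x axis) and its level in space_1g replicate 1 as a percentage of replicate 2 (y axis); dashed lines mark 100%. Most points lie under 60% on the y axis, and BUB3, AURKB, ESPL1 and PTTG1 lie apart toward 100%.

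Promoter sequence is shown because it is a feature that the choice of genes by function did not use, and because the genes move together between libraries. In the RefSeq promoter table (GRCh38.p14), windows ran from 250 bases before to 50 bases after a gene's start, and the most upstream window of each gene was used. Of the 43 genes 37 were matched, and AURKA, BUB3, TTK, BIRC5, TPX2 and UBE2C were not. The windows were searched on both strands for TTTGAA, the core of the cell cycle genes homology region that the MuvB core contacts, and for CCAAT, the box of NF-Y. TTTGAA was found in 26 of the 37 windows (70.3%), against 15.5% of the 27305 windows of the whole table and 9.69% of the 10187 windows of genes tested here. CCAAT was found in 30 of the 37 (81.1%), against 35.7% of the whole table. Both motifs were in 22 windows (59.5%), against 6.13%, and neither was in 3, those of CDC25C, CENPE and KIF2C. A match of 2 motifs overlapped in 2 of the 37 windows. Among other lists, CCAAT ran from 35.3% of 17 windows for the anaphase-promoting complex to 72.7% of 11 for CDK1 switch regulators. DNA replication genes had CCAAT in 55.9% of 34 windows and p53 targets in 52% of 25.

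The promoters of HMMR, with 7 matches, and TOP2A, with 6, are printed together with those of CCNB2 and CENPF, with 5 each. ECT2 and DLGAP5 also had 5 and are not shown, and of the 3 promoters without a match CDC25C and CENPE are shown. They are given as the 200 bases before the start, 5′ to 3′ on the gene's strand, with TTTGAA or its complement TTCAAA and CCAAT or its complement ATTGG in capitals. They are chr5:163460432-163460631 (plus strand) for HMMR, chr17:40417897-40418096 (minus strand) for TOP2A, chr15:59104946-59105145 (plus strand) for CCNB2, chr1:214602995-214603194 (plus strand) for CENPF, chr5:138338356-138338555 (minus strand) for CDC25C and chr4:103198344-103198543 (minus strand) for CENPE.
HMMR: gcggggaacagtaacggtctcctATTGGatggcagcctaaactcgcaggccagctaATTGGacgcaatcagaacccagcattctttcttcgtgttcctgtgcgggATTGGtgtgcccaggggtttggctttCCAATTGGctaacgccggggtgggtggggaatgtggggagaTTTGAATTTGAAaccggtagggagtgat
TOP2A: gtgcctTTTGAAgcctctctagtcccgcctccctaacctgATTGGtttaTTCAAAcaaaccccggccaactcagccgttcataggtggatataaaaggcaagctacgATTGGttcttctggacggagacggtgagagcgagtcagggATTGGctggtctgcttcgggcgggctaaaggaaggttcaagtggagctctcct
CCNB2: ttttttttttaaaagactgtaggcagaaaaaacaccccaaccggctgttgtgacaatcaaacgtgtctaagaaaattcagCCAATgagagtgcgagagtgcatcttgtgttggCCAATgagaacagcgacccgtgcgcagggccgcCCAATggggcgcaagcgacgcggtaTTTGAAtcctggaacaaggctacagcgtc
CENPF: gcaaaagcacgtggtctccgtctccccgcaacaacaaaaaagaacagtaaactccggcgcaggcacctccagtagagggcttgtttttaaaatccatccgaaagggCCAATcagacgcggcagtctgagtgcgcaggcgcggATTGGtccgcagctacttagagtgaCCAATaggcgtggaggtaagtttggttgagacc
CDC25C: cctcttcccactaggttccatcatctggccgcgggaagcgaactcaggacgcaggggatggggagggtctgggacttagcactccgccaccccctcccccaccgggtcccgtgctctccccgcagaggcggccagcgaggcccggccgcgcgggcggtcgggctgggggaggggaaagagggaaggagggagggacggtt
CENPE: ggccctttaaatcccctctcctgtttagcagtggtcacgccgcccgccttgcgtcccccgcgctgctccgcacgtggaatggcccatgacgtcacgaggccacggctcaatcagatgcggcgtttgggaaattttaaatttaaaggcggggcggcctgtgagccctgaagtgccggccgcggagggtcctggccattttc

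In HMMR, 2 TTTGAA copies stand in tandem close to the start, downstream of 5 CCAAT matches, of which a pair overlaps on opposite strands. TOP2A has 2 TTTGAA and 3 CCAAT matches in the printed stretch, CCNB2 has 1 and 3, and CENPF has 3 CCAAT matches there and its TTTGAA after the start. CDC25C and CENPE have neither motif in the windows printed; for CDC25C the table lists 4 windows, of which 2 hold a match. TTTGAA in the windows used did not separate the genes by how low they were. A match at another start of a gene was not counted, so this split cannot decide what part the motif has. In space_1g replicate 1 the 26 genes with TTTGAA were at a median of 42.8% of replicate 2 and the 11 genes without it at 41.7%. In ground replicate 3 the medians were 54.1% with the motif and 58.6% without, relative to the mean of replicates 1 and 2. Among other lists, TTTGAA was found in 65% of 20 windows of other spindle, kinesin and cytokinesis genes. CDK1 switch regulators had it in 63.6% of 11 windows. It was found in 41.2% of 17 windows of condensin and cohesin genes and in 34.6% of 26 windows of other kinetochore and centromere genes. Shares were 17.6% of 17 windows for the anaphase-promoting complex, 12.5% of 16 for G2/M transcription regulators and 9.09% of 22 for interferon-stimulated genes. DNA replication genes had it in 2.94% of 34 windows and p53 targets in 4% of 25. The 2 low libraries were lowest for 7 of 13 CDK1 switch genes and 16 of 20 condensin and cohesin genes.

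Entry into mitosis is driven by CDK1 with cyclins A2, B1 and B2 and by CDC25C, the phosphatase that removes inhibitory phosphates from CDK1. CDK1 (chr10:60778331-60794852 on GRCh38, GENCODE v29, plus strand) was at 239, 311 and 327 CPM in space_microg, 129 and 269.6 CPM in space_1g, and 266, 245 and 166 CPM in ground. Its lowest value was in space_1g replicate 1 and its next lowest in ground replicate 3, and the ranges of all 3 groups overlapped. CCNB1 was at 207, 242 and 260.5 CPM in space_microg, 70.7 and 235 CPM in space_1g, and 261, 222 and 112 CPM in ground. CDC25C was at 34.2, 47.4 and 49.2 CPM in space_microg, 17.7 and 44.8 CPM in space_1g, and 40.5, 42.5 and 31.8 CPM in ground. For CCNB1 space_1g replicate 1 held 30.1% of replicate 2, while CDC25C was less low in ground replicate 3, at 76.6% of the mean of replicates 1 and 2. CCNA2 and CCNB2 followed the same order, at 41.7% and 38.2% of replicate 2 in space_1g replicate 1.

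The mitotic kinases PLK1, AURKA and NEK2 were among the lowest in those libraries. PLK1 (chr16:23677656-23690367, plus strand), which acts on centrosomes, kinetochores and the midzone, was at 98.02, 79.8 and 108 CPM in space_microg, 32.2 and 113 CPM in space_1g, and 112, 102 and 46.7 CPM in ground. Its values in space_microg, space_1g replicate 2 and the first 2 ground libraries lay above the other 2 libraries, which held 28.6% of space_1g replicate 2 and 43.5% of the mean of ground replicates 1 and 2. AURKA, which builds spindle poles, was at 26.4% of replicate 2 in space_1g replicate 1 and at 46.4% of the mean of replicates 1 and 2 in ground replicate 3. For NEK2, which separates centrosomes, these shares were 33.05% and 43.5%.

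The spindle checkpoint delays anaphase until every chromosome is attached. BUB1 (chr2:110637698-110678114, minus strand), its kinetochore kinase, was at 156, 193 and 177 CPM in space_microg, 66.9 and 184 CPM in space_1g, and 202, 191 and 86.9 CPM in ground. MAD2L1, which binds CDC20 to hold the anaphase-promoting complex back, was at 77.3, 111 and 126 CPM in space_microg, 37.9 and 97.2 CPM in space_1g, and 82.8, 74.2 and 55.7 CPM in ground. MAD2L1 was the gene with the widest range over the 6 other libraries, 1.70-fold, with space_microg replicates 2 and 3 above the rest. BUB3, a WD-repeat partner of BUB1, was at 248, 252 and 256 CPM in space_microg, 204 and 237 CPM in space_1g, and 230.2, 231 and 221 CPM in ground. It was nearly flat, and its 3 space_microg values lay just above all 5 others. BUB1B (BUBR1), which inhibits CDC20, and TTK, the kinase MPS1, stood at 41.8% and 38.6% of replicate 2 in space_1g replicate 1.

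Kinetochores link chromosomes to microtubules through the complex of NDC80, NUF2, SPC24 and SPC25. NDC80 (chr18:2571511-2616635, plus strand), the subunit that grips the microtubule, was at 104, 123 and 115 CPM in space_microg, 53.1 and 99.2 CPM in space_1g, and 115, 101 and 76.5 CPM in ground. Its 3 space_microg values lay above both space_1g values. NUF2, its dimer partner, was at 85.8, 106 and 108 CPM in space_microg, 30.6 and 94.7 CPM in space_1g, and 99.4, 95.1 and 45.02 CPM in ground. NUF2 was lowered more than NDC80 in the low libraries, to 32.3% in space_1g replicate 1 and 46.3% in ground replicate 3, against 53.5% and 70.8% for NDC80. SPC24 and SPC25 were at 56.7% and 45.8% in space_1g replicate 1. CENPA, CENPE, a kinetochore motor, and CENPF, a large kinetochore protein made in G2, were at 32.9%, 31.5% and 27.6%, and in ground replicate 3 they were at 29.6%, 39.5% and 32.8%.

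The chromosomal passenger complex, made of AURKB, INCENP, CDCA8 (borealin) and BIRC5 (survivin), corrects faulty attachments. AURKB (chr17:8204733-8210600, minus strand), its kinase, was at 61.5, 68.4 and 87.2 CPM in space_microg, 57.96 and 83.8 CPM in space_1g, and 66.96, 70.96 and 61.1 CPM in ground. INCENP, the scaffold, was at 90.5, 71.2 and 77.7 CPM in space_microg, 51.7 and 95.99 CPM in space_1g, and 97.3, 104 and 53.9 CPM in ground. CDCA8 was at 89.3, 85.6 and 93.9 CPM in space_microg, 46.5 and 89.9 CPM in space_1g, and 95.8, 86.1 and 67.4 CPM in ground. Subunits of this complex were thus not lowered evenly: AURKB was at 69.2% in space_1g replicate 1, and INCENP, CDCA8 and BIRC5 were at 53.8%, 51.7% and 49.3%.

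Among the kinesins, KIF11 (chr10:92593286-92655395, plus strand), the motor that pushes spindle poles apart, was at 256, 313 and 302 CPM in space_microg, 124 and 310.1 CPM in space_1g, and 277, 281 and 133 CPM in ground. KIF2C, which takes microtubule ends apart at centromeres, was at 169, 196 and 196 CPM in space_microg, 111 and 193 CPM in space_1g, and 163, 168 and 128 CPM in ground. KIF2C was the least lowered of the 6 kinesins in both low libraries, and its space_microg values lay above all ground values. KIF20A, a motor of the central spindle, was at 243, 238 and 259.7 CPM in space_microg, 140.3 and 257 CPM in space_1g, and 302, 286 and 172 CPM in ground. KIF14, KIF23 and KIF4A, which work in cytokinesis and on chromosome arms, were at 27.9%, 45.2% and 55.3% of replicate 2 in space_1g replicate 1. KIF4A has a near-identical copy, KIF4B, so its count is uncertain.

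TPX2 (chr20:31739271-31801805, plus strand), which activates AURKA on spindle microtubules, was at 334, 350.4 and 341 CPM in space_microg, 194 and 361 CPM in space_1g, and 370.1, 342 and 237 CPM in ground. DLGAP5, a spindle-stabilising protein, was at 154, 189 and 189 CPM in space_microg, 49.996 and 163 CPM in space_1g, and 169, 157 and 71.4 CPM in ground. These differ in how far they were lowered: TPX2 was at 53.6% of replicate 2 in space_1g replicate 1 and DLGAP5 at 30.7%. NUSAP1, which bundles microtubules near chromosomes, was at 47.5%. TOP2A (chr17:40388516-40417950, minus strand), the topoisomerase that untangles sister chromatids, was at 1021, 1269.6 and 1166 CPM in space_microg, 436 and 1274 CPM in space_1g, and 1209.6, 1227 and 538 CPM in ground. It had the highest level per kilobase of exon of the 43 genes, with a mean of 158 CPM per kilobase, followed by NUSAP1 with 92.4 and TPX2 with 87.7. CDC25C, SPC25 and CENPA had the lowest, with 11.5, 12.4 and 12.8 CPM per kilobase. MKI67, the surfactant of mitotic chromosomes stained as Ki-67, was at 811, 786 and 655 CPM in space_microg, 483 and 934 CPM in space_1g, and 975, 1090.1 and 379 CPM in ground. It was the 1 gene of the 43 with its lowest value in ground replicate 3.

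Anaphase and exit from mitosis hold the 2 genes outside the common order of libraries. CDC20 (chr1:43358955-43363203, plus strand), the activator of the anaphase-promoting complex, was at 141, 122 and 163 CPM in space_microg, 62.7 and 160.3 CPM in space_1g, and 148, 143 and 87.3 CPM in ground. UBE2C, its ubiquitin-conjugating enzyme, was at 63.3, 54.01 and 78.5 CPM in space_microg, 28.6 and 63.3 CPM in space_1g, and 75.7, 56.1 and 44.3 CPM in ground. Both were low in the same libraries as the other mitotic genes. PTTG1 was at 114, 132 and 149 CPM in space_microg, 122 and 126 CPM in space_1g, and 122, 106 and 122 CPM in ground. ESPL1, the separase that PTTG1 inhibits, was at 138, 129 and 105 CPM in space_microg, 127 and 136 CPM in space_1g, and 144, 164 and 112 CPM in ground. PTTG1 was lowest in ground replicate 2 and ESPL1 in space_microg replicate 3. The next lowest library of ESPL1 was ground replicate 3, at 72.5% of the mean of replicates 1 and 2. PTTG1 has near-identical copies, PTTG2 and PTTG3P, so its count is uncertain where reads could be split between them.

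In cytokinesis, PRC1 (chr15:90966038-90995629, minus strand), which bundles the antiparallel microtubules of the midzone, was at 374, 440.2 and 432 CPM in space_microg, 217 and 430.0 CPM in space_1g, and 448, 413 and 272 CPM in ground. ECT2, which activates RhoA at the cleavage site, was at 263, 326 and 291 CPM in space_microg, 149 and 291 CPM in space_1g, and 274, 261 and 179.6 CPM in ground. Both were lowest in space_1g replicate 1, at 50.5% and 51.2% of replicate 2, and next lowest in ground replicate 3. ANLN, the scaffold of the contractile ring, was at 43.8% and 52.01% in these libraries by the same measures. The 43 genes lie on 18 chromosomes, with at most 7 on any of them.

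**Figure D3:**
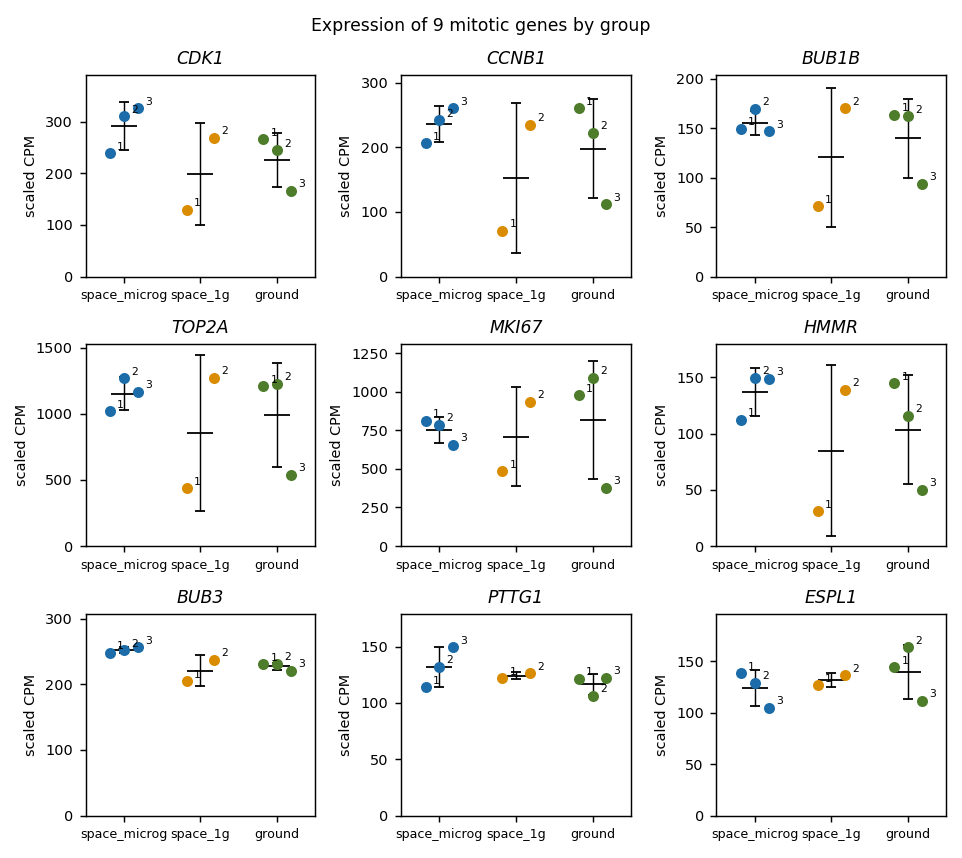
Scaled CPM of 9 mitotic genes in space_microg, space_1g and ground; points are libraries with their replicate number, the long bar is the group mean and the whiskers are 1 SD (n = 3, 2 and 3). In CDK1, CCNB1, BUB1B, TOP2A, MKI67 and HMMR the points of space_1g replicate 1 and ground replicate 3 lie far below the others of their group, while BUB3 and PTTG1 do not show this. In ESPL1 ground replicate 3 lies below replicates 1 and 2 to a smaller degree.

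In weightless cells against cells on the ground, no mitotic gene passed the test. Of the 43 genes, 41 had a positive log2 difference and 2 a negative one, against 47% and 53% of all genes tested, and their median was 0.28, against -0.02 over all genes tested. limma called 0 of the 43 at an adjusted p under 0.05, against 0% of all genes tested, and 0 had an unadjusted p under 0.05, against 4.32%. edgeR and DESeq2 on the recovered reads also called 0 of the 43, with 0 at an unadjusted p under 0.05, against 4.6% and 5.41% of all genes tested; DESeq2 called 0.0186% of all genes tested. MAD2L1 had the smallest p of the 43, with a mean of 105 ± 25.1 CPM in space_microg and 70.9 ± 13.9 CPM in ground (SD, n = 3 each) and a log2 difference of 0.55 ± 0.34 (SE; limma, adjusted p = 0.866).

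The next smallest p-values for space_microg against ground were those of KIF2C, with a log2 difference of 0.29 ± 0.22, CDK1 with 0.39 ± 0.29, ECT2 with 0.32 ± 0.27 and BUB3 with 0.15 ± 0.13, each with a limma adjusted p of 0.866. Errors here and below are SE. Genes that lead the other roles were positive but smaller relative to their error: KIF11 at 0.41 ± 0.38, TOP2A at 0.31 ± 0.44, NDC80 at 0.24 ± 0.25, BUB1 at 0.22 ± 0.41, PLK1 at 0.21 ± 0.47 and CDC20 at 0.20 ± 0.34. PRC1 was at 0.17 ± 0.28, TPX2 at 0.14 ± 0.25 and AURKB at 0.11 ± 0.19. Adjusted p-values of these 9 genes (limma) lay between 0.873 for KIF11 and 0.941 for PLK1. The negative genes were ESPL1, at -0.16 ± 0.18 (adjusted p = 0.884), and INCENP, at -0.04 ± 0.30 (adjusted p = 0.985). By role, the median difference ran between 0.12 for the passenger complex and 0.37 for the spindle assembly genes.

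The positive median, though not the sign of every gene, rested on ground replicate 3. Without that library and space_1g replicate 1, the median over the 43 genes was -0.01, with 20 positive and 23 negative, against 49.3% and 50.7% of all genes tested. Among the other genes named above, KIF2C was then at 0.17 ± 0.13, CDK1 at 0.18 ± 0.16, ECT2 at 0.13 ± 0.14, BUB3 at 0.13 ± 0.13, KIF11 at 0.051 ± 0.14, NDC80 at 0.081 ± 0.14, AURKB at 0.054 ± 0.17 and ESPL1 at -0.32 ± 0.15. TOP2A, BUB1, PLK1, CDC20, PRC1 and TPX2 turned negative, at -0.087 ± 0.17, -0.17 ± 0.14, -0.18 ± 0.16, -0.048 ± 0.15, -0.053 ± 0.14 and -0.059 ± 0.13. The largest positive difference was then MAD2L1, at 0.39 ± 0.20, and the largest negative MKI67, at -0.46 ± 0.17. MKI67 and INCENP (-0.34 ± 0.15) were the 2 genes with an unadjusted limma p under 0.05, against 12.6% of all genes tested, and limma called neither. With all libraries, the space_microg and ground values did not overlap for BUB3 and KIF2C, both higher in space_microg, against 7.88% of all genes tested, and for 0 genes lower, against 6.53%. Without both libraries, BUB3 and KIF2C were again the genes higher without overlap, against 16.7%, and CENPF, INCENP, KIF20A, MKI67 and ESPL1 were lower without overlap, against 16.6%.

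In the centrifuged flight cells against ground, the signs ran the other way and again no mitotic gene passed the test. Of the 43 genes, 41 had a negative log2 difference and 2 a positive one, against 48.8% and 51.2% of all genes tested, with a median of -0.29, against 0.01 over all genes. limma called 0 of the 43 (0% of all genes tested) and 0 had an unadjusted p under 0.05, against 1.55%; edgeR and DESeq2 called 0, also with 0 at an unadjusted p under 0.05, against 1.41% and 2.03%. NDC80 had the smallest p, with a mean of 76.2 ± 32.6 CPM in space_1g (SD, n = 2) and 97.6 ± 19.7 CPM in ground (SD, n = 3), and a log2 difference of -0.40 ± 0.28 (limma, adjusted p = 0.99999). CDCA8 was at -0.34 ± 0.27, KIF20A at -0.37 ± 0.31, UBE2C at -0.42 ± 0.35 and CDC25C at -0.41 ± 0.36. The genes of positive sign were PTTG1, at 0.09 ± 0.16, and AURKB, at 0.07 ± 0.21. All of these 7 genes had that same adjusted p.

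Between space_1g and ground, no gene of the 43 had values without overlap in either direction, against 4.94% of all genes tested higher and 5.73% lower. Without both low libraries the median was 0.04, with 27 positive and 16 negative, against 51.1% and 48.9% of all genes tested, and CDC25C turned positive, at 0.11 ± 0.24. NDC80 was then at -0.12 ± 0.19, CDCA8 at -0.014 ± 0.18, KIF20A at -0.19 ± 0.17, UBE2C at -0.042 ± 0.26, PTTG1 at 0.15 ± 0.20 and AURKB at 0.28 ± 0.22. limma called 0 genes, with 0 at an unadjusted p under 0.05, against 5.22% of all genes tested. The space_1g group is then its replicate 2 alone, which lay above both ground libraries for 17 genes and below both for 9, against 38.3% and 36.9% of all genes tested. Leaving out only space_1g replicate 1 gave a median of 0.33, and leaving out only space_1g replicate 2 gave -0.87, both with ground replicate 3 kept. The sign thus changed with the space_1g library kept, and the 0.33 became 0.04 once ground replicate 3 was also left out.

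Weightless against centrifuged cells, flown in the same incubator, gave the widest difference. Of the 43 genes, 42 were positive and 1 negative, against 46.6% and 53.4% of all genes tested, with a median of 0.56, against -0.03 over all genes. NDC80 alone had an unadjusted p under 0.05 by limma, against 1.32% of all genes tested: its means were 114 ± 9.57 CPM in space_microg (SD, n = 3) and 76.2 ± 32.6 CPM in space_1g (SD, n = 2), with a log2 difference of 0.64 ± 0.28 (adjusted p = 0.912). limma called 0 of the 43, against 0% of all genes tested. edgeR and DESeq2 called 0, with 0 at an unadjusted p under 0.05, against 1.37% and 2.11%. MAD2L1 was at 0.75 ± 0.38, CDK1 at 0.63 ± 0.33, DLGAP5 at 0.96 ± 0.50 and NUF2 at 0.87 ± 0.48, each with an adjusted p of 0.912. ESPL1, at -0.09 ± 0.20 (adjusted p = 0.932), was the negative gene.

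This difference, too, was carried by 1 library. Without space_1g replicate 1 and ground replicate 3 the median was -0.05, with 13 positive and 30 negative, against 49.2% and 50.8% of all genes tested, and NDC80 was at 0.20 ± 0.18, with 0 genes at an unadjusted limma p under 0.05, against 0.919% of all genes tested. MAD2L1 was then at 0.081 ± 0.25, CDK1 at 0.10 ± 0.21, DLGAP5 at 0.12 ± 0.18, NUF2 at 0.069 ± 0.18 and ESPL1 at -0.15 ± 0.20. Values of space_microg and space_1g did not overlap for BUB3 and NDC80, both higher in space_microg, against 7.24% of all genes tested, and for 0 genes lower, against 6.91%. Without both low libraries these 2 genes were again higher without overlap, against 16.9%, and 8 genes were lower, against 16.7%. All 3 comparisons share groups, so their medians are not independent of each other.

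**Figure D4:**
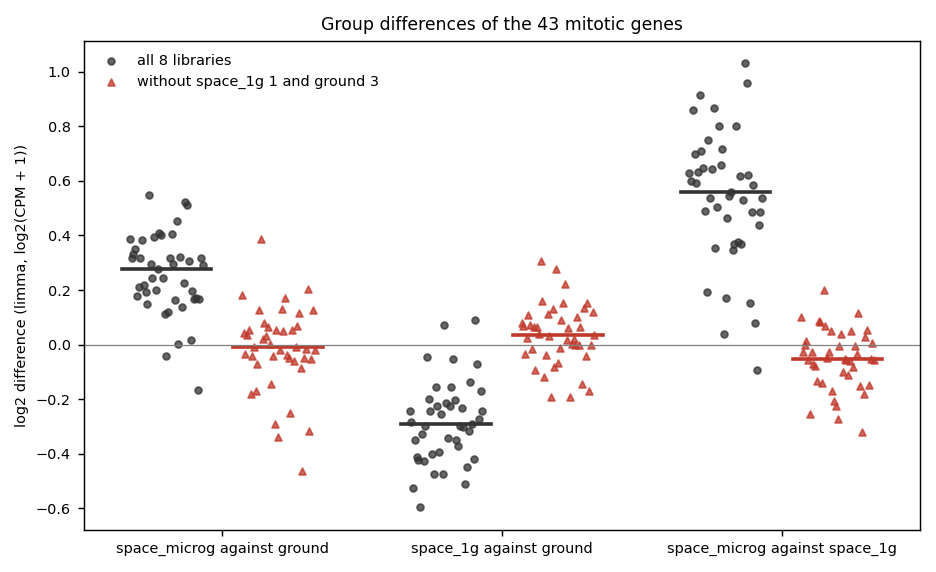
Log2 differences of the 43 mitotic genes (limma on log2(CPM + 1); points are genes and bars are medians) for the 3 comparisons named on the x axis, with all 8 libraries (dark circles) and without space_1g replicate 1 and ground replicate 3 (red triangles). With all libraries the medians are 0.28, -0.29 and 0.56, and without the 2 libraries they are -0.01, 0.04 and -0.05.

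Other genes of chromosome division shared the pattern to different degrees. A score, the median over a list of each gene's log2(CPM + 1) minus its mean over the 8 libraries, was 0.12, 0.34 and 0.35 in space_microg, -0.92 and 0.30 in space_1g, and 0.28, 0.22 and -0.53 in ground for the 43 mitotic genes. For 24 other spindle, kinesin and cytokinesis genes it was 0.05, 0.20 and 0.21 in space_microg, -0.70 and 0.26 in space_1g, and 0.23, 0.20 and -0.54 in ground. Of these 24 genes, 23 had space_1g replicate 1 and ground replicate 3 as their 2 lowest libraries. So did 16 of 20 condensin and cohesin genes, which compact chromosomes and hold sisters together, and 17 of 33 other kinetochore and centromere genes, against 21.5% of all genes tested. The count was 7 of 13 for regulators of the CDK1 switch, 6 of 17 for the anaphase-promoting complex and 9 of 19 for G2/M transcription regulators. In other genes of these lists the same libraries were the 2 highest: 2 of 20 for condensin and cohesin, 3 of 33 for other kinetochore genes, 3 of 13 for the CDK1 switch, 2 of 17 for the anaphase-promoting complex, 4 of 19 for the G2/M regulators and 0 of the 24 other spindle genes, against 23.6% of all genes tested. MYBL2, which encodes B-MYB and is named after its values were seen, was one of those 4, at 214, 182 and 225 CPM in space_microg, 286 and 196 CPM in space_1g, and 222, 202 and 331 CPM in ground.

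Genes of DNA replication, which act in the phase before, had a median near 0 in every library, with genes on both sides. Their score over 40 genes was -0.06, 0.02 and 0.09 in space_microg, -0.09 and 0.02 in space_1g, and 0.03, 0.04 and 0.12 in ground. The 2 libraries were the lowest for 10 of the 40 and the highest for 5, against 21.5% and 23.6% of all genes tested. MCM6, a subunit of the replicative helicase named after its values were seen, was low in both, at 155, 176 and 193 CPM in space_microg, 96.5 and 204 CPM in space_1g, and 178, 198 and 119 CPM in ground. In space_1g replicate 1 the 40 genes lay at a median log2 difference of -0.10 from replicate 2, with 28 of 40 lower, against -1.19 for the mitotic genes, with 43 of 43 lower, and 49.9% lower over all genes tested. In ground replicate 3 the medians were 0.02 for the replication genes and -0.80 for the mitotic genes, relative to the mean of replicates 1 and 2, with 18 of 40 and 42 of 43 lower, against 50.2% of all genes tested.

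**Figure D5:**
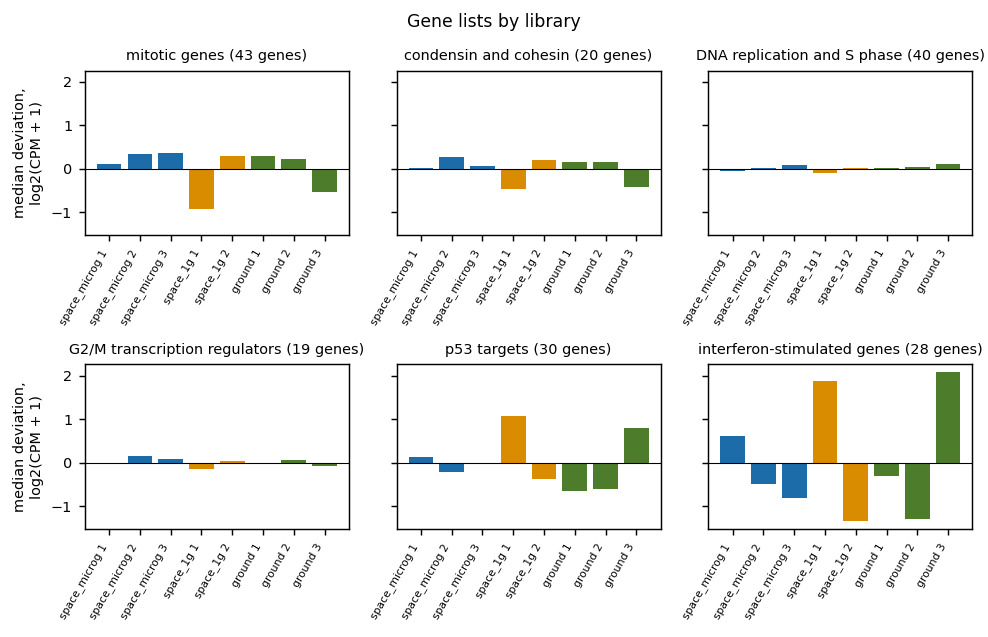
Score of 6 gene lists in each library: the median over the list of log2(CPM + 1) minus the gene's mean over the 8 libraries, with bars by group in the order space_microg, space_1g and ground. The mitotic and the condensin and cohesin lists are below 0 in space_1g replicate 1 and ground replicate 3, the scores of DNA replication and G2/M regulators lie between -0.15 and 0.14 in all 8 libraries, and p53 targets and interferon-stimulated genes are above 0 in both.

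limma called 0 genes of these 7 lists in any of the 3 comparisons. In space_microg against ground, the median log2 difference was 0.18 over the 24 other spindle genes (17 positive), 0.14 over condensin and cohesin (13 of 20 positive) and 0.14 over other kinetochore genes (27 of 33 positive). It was 0.06 over the CDK1 switch regulators (8 of 13 positive), 0.13 over the anaphase-promoting complex (12 of 17), 0.06 over G2/M transcription regulators (11 of 19) and -0.07 over DNA replication genes (15 of 40), against 47% positive over all genes. Without both low libraries the medians were -0.06, -0.04, 0.08, -0.04, 0.05, 0.03 and -0.02 for the same lists in the same order. CENPT (-0.59 ± 0.19) and SKA2 (0.55 ± 0.23) at the kinetochore and MCM10 (-0.33 ± 0.13) in replication had an unadjusted limma p under 0.05 with all libraries. These are 3 of the 166 genes of the 7 lists (1.81%), against 4.32% of all genes tested. In space_1g against ground this held for 1 gene, of the CDK1 switch list (0.602%, against 1.55% of all genes tested), and in space_microg against space_1g for 2 genes of the anaphase-promoting complex (1.2%, against 1.32%). Without both low libraries it held for 13 of the 166 genes (7.83%) in space_microg against ground, against 12.6% of all genes tested: 4 of the spindle list, 3 at the kinetochore, 2 of the CDK1 switch, 2 of replication and 1 each of condensin and cohesin and of the G2/M regulators. In each of the other comparisons it then held for 0, against 5.22% in space_1g against ground and 0.919% in space_microg against space_1g, and limma called 0 of the 166 in any comparison. CENPT, SKA2 and MCM10 were then at -0.47 ± 0.16, 0.34 ± 0.15 and -0.37 ± 0.13. edgeR called 0 genes of any kind in the 3 comparisons.

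Further genes with the smallest p in their list were FOXM1 (-0.26 ± 0.14), which activates mitotic genes, LIN9 (0.43 ± 0.24), a MuvB subunit, and TFDP2 (0.35 ± 0.22), an E2F partner. FOXM1 itself was at 196, 187 and 190.4 CPM in space_microg, 169 and 205 CPM in space_1g, and 245, 235 and 211 CPM in ground. Its ground values lay above both other groups, with 211 CPM as the lowest of them and 205 CPM as the highest flight value. Of all genes tested, 6.53% were lower in space_microg than in ground without overlap, and 5.73% were lower in space_1g. FOXM1 was not lowered in ground replicate 3 to the degree of the mitotic genes. ARPP19 (0.49 ± 0.27), CDC25A (-0.27 ± 0.16) and WEE1 (-0.31 ± 0.20), the kinase that inhibits CDK1, led the CDK1 switch list. ANAPC10 (0.39 ± 0.19), ANAPC16 (0.29 ± 0.14) and ANAPC2 (-0.36 ± 0.19) led the anaphase-promoting complex. CDCA5 (-0.32 ± 0.20), NCAPH2 (-0.35 ± 0.30) and STAG2 (0.28 ± 0.24) led condensin and cohesin, PMF1 (0.44 ± 0.22) came next at the kinetochore, and KIF20B (0.56 ± 0.29), PBK (0.39 ± 0.31) and DEPDC1 (0.72 ± 0.62) led the spindle list. UHRF1 (-0.38 ± 0.18) and CDT1 (-0.38 ± 0.21) followed MCM10 in replication. Each of these 18 genes kept its sign without both low libraries. FOXM1, LIN9 and TFDP2 were then at -0.33 ± 0.12, 0.20 ± 0.17 and 0.20 ± 0.14, ARPP19, CDC25A and WEE1 at 0.24 ± 0.15, -0.16 ± 0.14 and -0.44 ± 0.15, and ANAPC10, ANAPC16 and ANAPC2 at 0.32 ± 0.18, 0.32 ± 0.15 and -0.28 ± 0.18. CDCA5, NCAPH2 and STAG2 were at -0.11 ± 0.14, -0.042 ± 0.15 and 0.11 ± 0.15, PMF1 at 0.43 ± 0.22, KIF20B, PBK and DEPDC1 at 0.32 ± 0.14, 0.18 ± 0.18 and 0.19 ± 0.17, and UHRF1 and CDT1 at -0.40 ± 0.19 and -0.29 ± 0.22.

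Genes of 2 other programs were high where the mitotic genes were low. Of 30 genes listed as p53 targets, 25 had space_1g replicate 1 and ground replicate 3 as their 2 highest libraries, against 23.6% of all genes tested. The list also holds CDKN1B, CDKN2B and CDKN2D, CDK inhibitor genes that are not usually counted as p53 targets. The 30 genes summed to 5261, 4139 and 4668 CPM in space_microg, 10426 and 3662 CPM in space_1g, and 2712, 2678 and 8866 CPM in ground. CDKN1A, named after its values were seen, encodes the CDK inhibitor p21 and was at 879.6, 539 and 791 CPM in space_microg, 2315 and 610.4 CPM in space_1g, and 399, 348 and 2067 CPM in ground. Of 28 interferon-stimulated genes, 27 had these 2 libraries highest. They summed to 2492, 1146 and 977 CPM in space_microg, 5208 and 787 CPM in space_1g, and 1284, 765 and 6359 CPM in ground. Their part in the level of the mitotic genes was not tested.

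Within the p53 list, CCNG1 (0.77 ± 0.18) and ZMAT3 (0.69 ± 0.19) had the smallest p in space_microg against ground, each with a limma adjusted p of 0.866. They were followed by CDKN2D (0.47 ± 0.29), which is among the CDK inhibitor genes of that list. In the interferon list they were IRF9 (-0.70 ± 0.52), STAT2 (-0.46 ± 0.39) and ISG20 (-0.34 ± 0.40). The median over the 30 genes of the p53 list was 0.10 with 18 positive. Over the 28 interferon-stimulated genes it was -0.32 with 2 positive, against 47% positive over all genes tested. Without both low libraries these were 0.67 with 29 positive and 0.67 with 26 positive, against 49.3% positive over all genes tested. CCNG1, ZMAT3 and CDKN2D were then at 0.78 ± 0.17, 0.82 ± 0.16 and 0.34 ± 0.26, and IRF9, STAT2 and ISG20 at -0.50 ± 0.37, -0.12 ± 0.19 and 0.033 ± 0.20. Keratinocyte markers, of which 5 of 10 were in the table, summed to 7.29, 3.33 and 5.64 CPM in space_microg, 14.9 and 4.23 CPM in space_1g, and 3.97, 2.83 and 15.4 CPM in ground. They were thus highest in the same 2 libraries, at a low level, and KRT1, KRT5, KRT14, TP63 and LOR are not analysed here. Their part in the result was not tested either.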

How the data were processed

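RNA of 8 libraries of HMEC-1 cells was sequenced. The mitotic genes, their role groups and the other lists were chosen with earlier results of these data known. The deposited values are a normalised signal per gene, scaled CPM, which the authors named CPM per the labels. The submitters' processing notes name the builds hg38 and GRCh38 and the tools STAR 2.5.3, CASAVA 1.8.2, FastQC, edgeR and featureCounts, with no roles. Libraries were stranded and ribosome-depleted, per the labels' protocols; how strand was handled in counting is not stated in the labels. In every library 100% of values were whole multiples of the value of 1 read, within 0.001 read, so read counts were recovered for the count tests.

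The main test was limma 3.58.1 (trend, R 4.3.3) on log2(CPM + 1), two-sided, in one fit of all 8 libraries and 3 groups without covariates, over 16103 genes with at least 1 CPM in at least 2 libraries. Benjamini-Hochberg adjustment ran over all of them, with a threshold of 0.05. The plan assumed plain CPM, and the same fit was used for the scaled values; on this scale a difference understates the change of low genes. edgeR 4.0.16 (quasi-likelihood) and DESeq2 1.42.0 were run on the recovered counts. Other alternatives were pseudocounts of 0.25 and 4, no filter or one of 5 CPM, quantile or median-of-ratios scaling, a fit of only the groups compared, no trend, array weights, a replicate block, each library left out in turn, and both low libraries left out. The edgeR and DESeq2 fits without both libraries were added after seeing the data. The steps were tested on simulated counts in which no library stood apart. That run cannot say how many differences the tests miss in these data.

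Named genes are the first gene of each role, in each comparison the 5 with the smallest p and those of opposite sign, and up to 3 per other list. Positions and exon lengths are those of GENCODE v29, promoters those of RefSeq. Within a group, pairs of libraries had a chi-square of 19.3 to 205 for each degree of freedom, and none was counted as a duplicate.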

Additional observations from a re-analysis of the deposited data

How the results depend on the processing

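limma, edgeR and DESeq2 called 0 of the 43 mitotic genes in each comparison and under each alternative run, including each library left out in turn. The median difference of space_microg against ground turned to -0.10 with array weights, and lay between -0.01 and 0.43 as each library was left out. The medians lay between -0.87 and 0.33 for space_1g against ground and between -0.05 and 1.16 for space_microg against space_1g. Without both space_1g replicate 1 and ground replicate 3, space_1g has 1 library. The genes whose groups do not overlap then numbered 7, 26 and 10 in the order of comparisons above, in place of 2, 0 and 2. Of all genes tested, 16.7% were then higher without overlap and 16.6% lower in space_microg against ground. These shares were 38.3% and 36.9% in space_1g against ground, and 16.9% and 16.7% in space_microg against space_1g. In space_microg against ground, leaving out both libraries turned the log2 difference of PLK1 to -0.18 (-0.17 by edgeR and by DESeq2), BUB1 to -0.17 (-0.17 and -0.17), TPX2 to -0.059 (-0.060 and -0.060), TOP2A to -0.087 (-0.081 and -0.082), CDC20 to -0.048 (-0.039 and -0.039) and PRC1 to -0.053 (-0.051 and -0.051). With array weights these were -0.23, -0.26, -0.12, -0.13, -0.071 and -0.15, and NDC80 was -0.053. CDC25C in space_1g against ground turned to 0.11 in all 3 tools without both libraries. The cause was not tested.

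As each library was left out in turn, ranges that crossed 0 in space_microg against ground were -0.34 to 0.13 for INCENP, -0.18 to 0.44 for PLK1, -0.17 to 0.43 for BUB1, -0.030 to 0.22 for AURKB, -0.059 to 0.26 for TPX2, -0.087 to 0.51 for TOP2A, -0.048 to 0.33 for CDC20 and -0.053 to 0.30 for PRC1. In space_1g against ground they were -0.85 to 0.044 for NDC80, -0.81 to 0.13 for CDCA8, -0.81 to 0.064 for KIF20A, -0.98 to 0.14 for UBE2C, -1.06 to 0.23 for CDC25C and -0.19 to 0.33 for AURKB. In space_microg against space_1g the range was -0.18 to 0.022 for ESPL1.

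Equal replicate numbers were not taken as pairs in the main fit. Deviations of same-numbered libraries correlated at -0.40, 0.56 and 0.05 between space_microg and ground. The values were -0.68 and 0.60 between space_1g and ground, and 0.68 and 0.20 between space_microg and space_1g. So few values, of mixed sign, cannot decide whether libraries were paired. With the replicate block limma called 0 genes, the medians were 0.28, -0.40 and 0.65, and ESPL1 in space_microg against space_1g turned to 0.040. Each of the 43 genes had at least 289 reads in every library, and each group has 2 or 3 libraries; what limits the number of calls was not tested.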
